A study of Homo sapiens with 24 samples.

Results

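HBL-1, a human line of diffuse large B cell lymphoma of the activated B cell-like subtype (ABC-DLBCL), was transfected by nucleofection with 1 µM of an siRNA against FOXP1 and harvested after 48 h. The 6 HBL-1 arrays, of 24 in the series, were chosen by their titles, with 3 replicates of siFOXP1 #1 (oligonucleotide 308) and 3 of siFOXP1 #2 (oligonucleotide 309). On each 2-colour array, Cy3-labelled RNA of FOXP1-silenced cells was hybridised against Cy5-labelled RNA of HBL-1 cells given a low GC negative control siRNA (siCtrl). The other lines, whose arrays share the fit and its estimate of spread, were treated the same way with 6 arrays each, and comprised OCI-Ly3, also ABC-DLBCL, and DB and K422, which are germinal centre B cell-like (GCB-DLBCL). All values come from a single cell line, silencing was transient, and no array carried the dyes the other way round, so a dye bias of a probe and an effect of silencing cannot be told apart.

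FOXP1 is a forkhead transcription factor that can act as a repressor and is abundant in many ABC-DLBCL. The ABC subtype is named for its likeness to activated B cells on the way to plasma cells and is known for constant NF-kB signalling. Germinal centre B cells, which the other subtype resembles, diversify their antibody genes, present antigen on MHC class II molecules and leave or stay in the follicle by chemokine and lipid receptors. The arrays therefore bear on which genes of these programmes changed in level when FOXP1 was reduced in an ABC-DLBCL line.

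The agent and its target were checked first. The FOXP1 probe lies in the last coding part of the gene, at chr3:71091098-71091157 on the minus strand of hg18 as the array files give it, and its sequence is shown because every statement on silencing rests on it.
FOXP1 probe: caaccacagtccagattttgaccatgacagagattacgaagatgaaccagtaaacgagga
Its log2 ratio of siFOXP1 over siCtrl was -1.22, -1.57 and -1.09 on the arrays of siFOXP1 #1 and -1.93, -2.50 and -2.14 on those of siFOXP1 #2. FOXP1 was lower on 6 of 6 arrays, and the arrays of the siRNAs did not overlap. On the slide that held replicate 1 the mean was -1.57 and on the slide that held replicates 2 and 3 it was -1.83. Over all arrays it was -1.74 ± 0.55 (SD, n = 6), a 3.34-fold lower level, with a limma adjusted p of 3.48e-11. A second FOXP1 probe, at 71088711 to 71088770 on chromosome 3, averaged -1.79 ± 0.35. Of the other members of the FOXP family, FOXP4 was measured in both channels and its value was 0.48 ± 0.10, under the limit for a call, while FOXP2 and FOXP3 were dim.

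The labelled cell type was checked against defining markers. All 8 B cell markers listed (among them MS4A1, CD79A, CD79B, PAX5, CD22, CD74 and BLK) were well above background in both channels on all 6 arrays. Of 9 T cell markers, CD3E, CD247, CD8A and CD4 were well above background on all arrays, CD2 on some, and CD3D, CD3G, TRAT1 and UBASH3A on none. Of 9 monocyte and macrophage markers, CSF1R was above background in both channels and CD14 in at least one, and the other 7, LYZ and CD163 among them, on no array. None of the T cell or myeloid markers above background was called. On the 6 arrays, one or both channels of 61.4% to 63.6% of probes stood well above background, and the spread of log2 ratios over probes ran from 0.396 to 0.558 (SD). The number of arrays limits the precision of all values that follow.

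Silencing changed many genes, mostly by modest factors. A gene was called when its limma adjusted p was under 0.05 and its log2 ratio at least 0.5 in size, a 1.41-fold change. Of 30140 genes tested, 1727 (5.73%) were higher and 1258 (4.17%) were lower, and 281 and 220 of these passed 2-fold. The signal behind these calls differed. Among 16457 genes with both channels well above background on all 6 arrays, 1145 (6.96%) were higher and 806 (4.90%) lower. Among 1113 genes with at least one channel above background throughout, but not both, 209 (18.8%) were higher and 82 (7.37%) lower. A gene can enter this class through the channel in which it is high, so its share of calls is in part built in. Among 12570 dim genes, 373 (2.97%) were higher and 370 (2.94%) lower, and their ratios rest on signal near background. The same sign was seen on all 6 arrays for 1098 of the 1145 higher and 789 of the 806 lower genes measured in both channels, and for 176 of the 373 higher and 202 of the 370 lower dim genes.

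**Figure D1:**
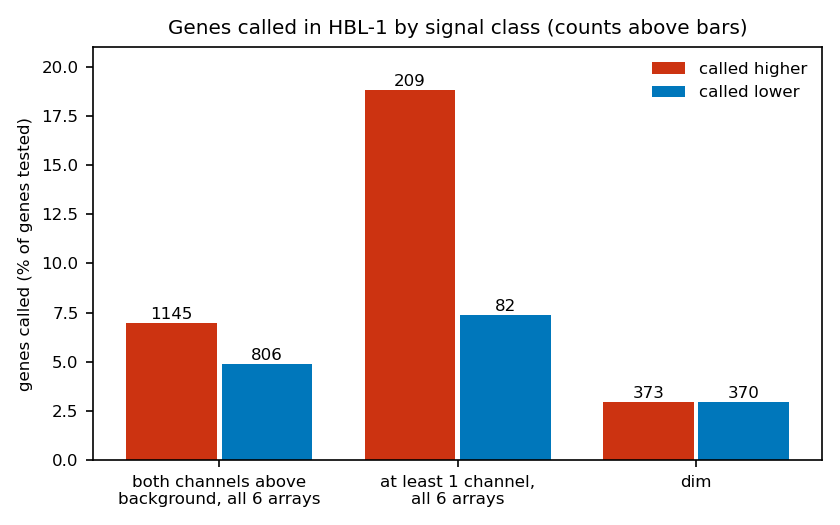
Share of genes called higher or lower in HBL-1 (y axis, % of genes tested in a class) for 3 classes of signal over the 6 arrays (x axis), with the number of genes above each bar. The share called higher was 6.96% with both channels above background, 18.8% with only one throughout and 2.97% for dim genes. A gene can enter the class with only one channel through the channel in which it is high, so that share is in part built in.

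The balance between higher and lower calls depended on the processing. Higher genes were 57.9% of all calls with the ratios of the scanner software, 53.2% with the deposited matrix and 70.6% (690 higher, 288 lower) with normexp background correction and loess. With normexp and median centring alone, without correction for a trend with intensity, they were 7.79% (158 higher, 1870 lower). The ratios of the scanner software were used for all values unless another setting is named.

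The greatest rise among genes measured in both channels was that of IGJ. IGJ (now JCHAIN), the joining chain of polymeric antibodies, had log2 ratios of 3.13, 2.82 and 2.70 with siFOXP1 #1 and 3.58, 3.97 and 3.81 with siFOXP1 #2. It was higher on every array, with the arrays of siFOXP1 #2 above those of #1. The mean was 3.33 ± 0.53 (SD, n = 6), a 10.1-fold rise, with an adjusted p of 6.21e-12. NEIL1, a DNA glycosylase of base excision repair, rose by 2.42 ± 0.50 on the log2 scale, with array values from 1.67 to 3.13.

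FCRL5 and FCRL3, Fc receptor-like proteins of the B cell surface, rose with both siRNAs. FCRL5 had log2 ratios of 3.24, 2.89 and 3.04 with siFOXP1 #1 and 3.61, 3.06 and 3.47 with #2, a mean of 3.22 ± 0.28 and a 9.30-fold rise (adjusted p = 4.00e-09). FCRL3 had 2.87, 2.47 and 2.54 with #1 and 2.95, 2.68 and 2.65 with #2, a mean of 2.69 ± 0.19 and a 6.46-fold rise (adjusted p = 8.86e-10). For these genes the arrays of the siRNAs overlapped. Second probes measured in both channels gave 2.89 for FCRL5 and 3.37 for FCRL3.

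The other genes among the 12 greatest rises had varied functions. CXCR4, the receptor for CXCL12 that holds B cells in the germinal centre dark zone and in the bone marrow, had log2 ratios of 2.03, 1.62 and 1.41 with siFOXP1 #1 and 3.41, 3.31 and 2.84 with #2. Its mean of 2.43 ± 0.87 averaged siRNAs whose arrays did not overlap, although their difference missed the threshold (adjusted p = 0.0968). CD24, a small glycosylated surface protein, gave 1.98, 1.78 and 1.67 with #1 and 3.04, 2.95 and 2.92 with #2, a mean of 2.39 ± 0.65 (adjusted p = 2.30e-12). The array design places the CD24 probe on a near-identical copy on chromosome Y, so the copy measured is uncertain. PLXND1, a semaphorin receptor, rose by 2.03 ± 0.51, and COL18A1, a collagen of basement membranes, by 1.98 ± 0.44, with a second COL18A1 probe at 1.10. C16orf74 rose by 2.94 ± 0.29, JSRP1, a protein of the sarcoplasmic reticulum junction, by 2.49 ± 0.74, and GUCA1A, a guanylate cyclase activator of photoreceptors, by 2.29 ± 0.36. Adjusted p for these 5 genes ran from 4.40e-11 for C16orf74 to 4.78e-06 for PLXND1.

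**Figure D2:**
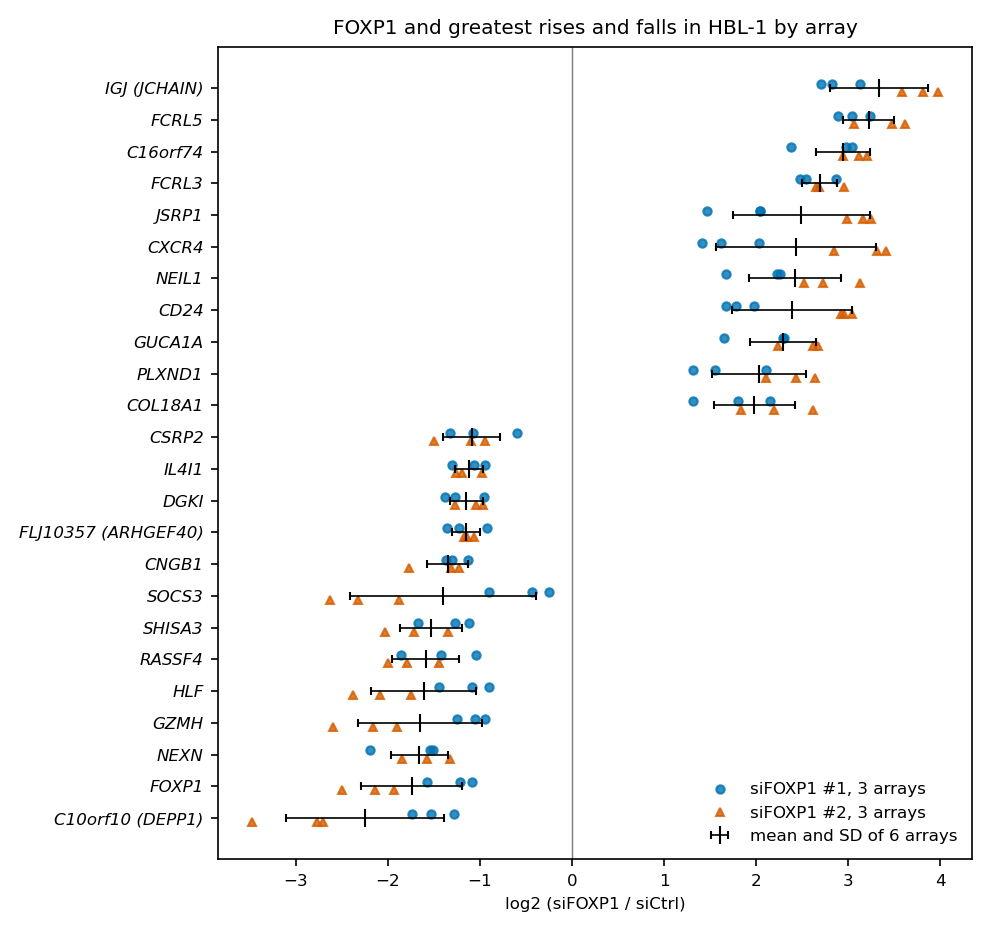
Log2 ratio of siFOXP1 over siCtrl (x axis) on each HBL-1 array for FOXP1 and 11 of the 12 strongest rises and the 12 strongest falls beyond 2-fold among named genes measured in both channels (y axis). Circles are the 3 arrays of siFOXP1 #1, triangles the 3 arrays of siFOXP1 #2, and bars the mean and SD of 6 arrays. Rises reached 3.33 for IGJ, and the greatest fall was -2.25 for C10orf10.

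The falls were smaller. The greatest among named genes measured in both channels was that of C10orf10 (now DEPP1), past that of FOXP1 itself (mean -1.74). C10orf10, a gene known as a target of FOXO transcription factors, had log2 ratios of -1.74, -1.28 and -1.53 for siFOXP1 #1 and -2.70, -2.77 and -3.47 for #2. Every array was lower and those of #2 lay below those of #1, with a mean of -2.25 ± 0.86, a 4.75-fold lower level (adjusted p = 5.49e-08). SOCS3, the feedback inhibitor of cytokine receptor signalling through JAK kinases, gave -0.25, -0.43 and -0.90 with #1 and -1.88, -2.63 and -2.32 with #2. Its mean of -1.40 ± 1.01 came chiefly from siFOXP1 #2, and a second SOCS3 probe averaged -0.59. The call of SOCS3 was lost by the methods' t-test (adjusted p = 0.056). HLF, a transcription factor of the PAR bZIP family, fell by 1.61 ± 0.57 on the log2 scale, from -1.45, -0.90 and -1.09 with #1 to -2.08, -1.75 and -2.38 with #2 (adjusted p = 1.24e-10).

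IL4I1, a secreted L-amino acid oxidase of activated B cells and macrophages, fell with both siRNAs, with -1.06, -0.95 and -1.30 for #1 and -1.26, -0.98 and -1.20 for #2. Its mean was -1.12 ± 0.15 (adjusted p = 3.05e-07), and the arrays of the siRNAs overlapped. GZMH, a granzyme of cytotoxic granules, fell by 1.65 ± 0.67, RASSF4, a Ras association domain protein, by 1.59 ± 0.36, SHISA3 by 1.53 ± 0.34 and NEXN, an actin-binding protein, by 1.66 ± 0.31. The call of NEXN was lost without replicate 1 (mean -1.56), without replicate 3 (-1.66) and with either siRNA alone, and its second probe gave -0.39. CNGB1, FLJ10357 (now ARHGEF40), DGKI and CSRP2 fell by 1.35 ± 0.22, 1.15 ± 0.15, 1.15 ± 0.18 and 1.09 ± 0.31. With normexp and loess the values of these 4 genes were between -0.46 and -0.37 and the calls were lost.

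Some of the widest ratios came from genes with only one channel above background. SYT17, a synaptotagmin, was well above background in silenced cells on all 6 arrays and in control cells on none, with ratios from 3.89 to 5.83. Against the lowest signal counted as above background, SYT17 was at least 14.8-fold higher (adjusted p = 3.72e-11), and ATAD4 (now PRR15L) at least 4.24-fold higher by the same measure. LHFPL2, C1orf167, DUSP26 and IL13RA1, a receptor chain for interleukin-13, were above background in all silenced samples and in 2 or 3 of the 6 control samples, with mean ratios of 3.63, 3.40, 3.30 and 2.58. On their remaining arrays the control signal was not well above background. In the other direction, DOCK4, TRIM49, GIMAP1 and hCG_1820661 (now LINC01144) were above background in control cells only and were at least 3.40-fold, 2.91-fold, 2.29-fold and 2.31-fold lower. ANKRD19 (now ANKRD19P) and TMPRSS2 reached background in some silenced samples, with -1.51 ± 0.77 and -1.35 ± 0.34. None of these 6 falls kept its call with normexp and loess, where they were -0.43 or smaller in size, while the 6 rises did. These bounds take channel intensities after loess and quantile scaling of the siCtrl channel, and are open to dye bias.

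The siRNAs gave similar patterns, with larger changes for siFOXP1 #2. Across the 16457 genes measured in both channels, which are not independent replicates, the mean ratios of #1 and #2 had a Pearson correlation of 0.883 and a Spearman correlation of 0.872, against 0.745 and 0.679 over all 30140 genes. Whether both siRNAs were hybridised against the same control RNA is not known, and shared control RNA would itself raise these values. Tested alone, siFOXP1 #1 gave 844 higher and 533 lower genes among those measured in both channels, and #2 gave 1328 and 1019. Called with each were 729 higher and 379 lower genes, and none was called in opposite directions. Of the 1145 higher genes, 916 were further from 0 with #2, and the median was 0.719 for #2 against 0.610 for #1. Of the 806 lower genes, 592 were further from 0 with #2, and the medians were -0.690 and -0.561. FOXP1 itself was lower with #2 (difference -0.90, adjusted p = 0.0146).

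**Figure D3:**
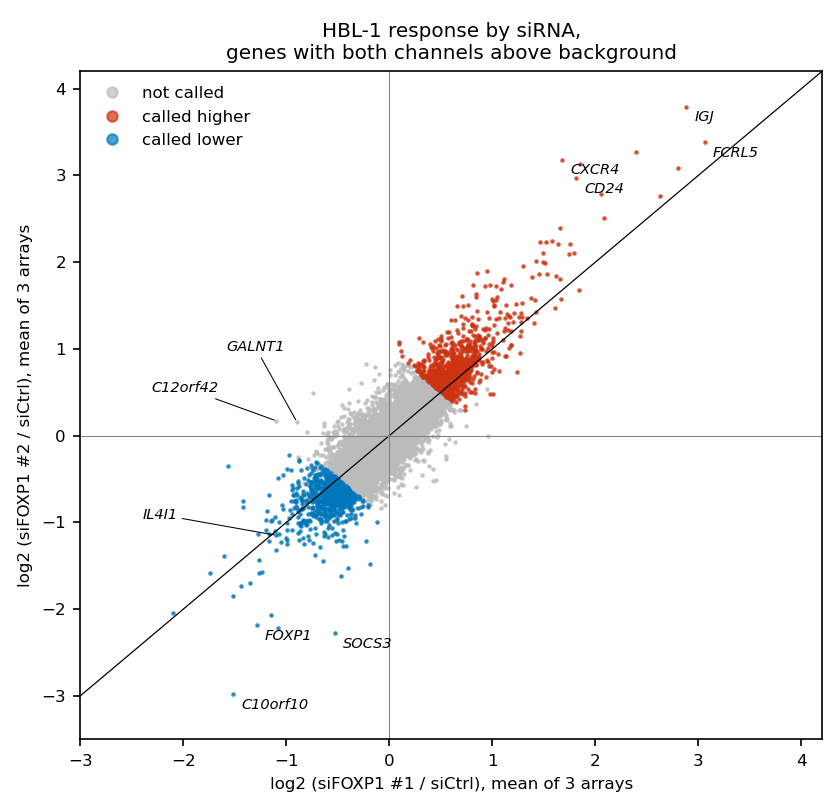
Mean log2 ratio with siFOXP1 #1 (x axis) against siFOXP1 #2 (y axis), 3 arrays each, for genes with both channels above background, coloured by the call over all 6 arrays, with the line of equal values. IGJ was at 2.88 and 3.79, C10orf10 at -1.52 and -2.98, and SOCS3 at -0.53 and -2.28.

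A direct test found 52 genes (0.173% of 30140) that differed between the siRNAs, 35 of them measured in both channels. GALNT1, which starts O-linked glycosylation, had -0.78, -1.01 and -0.89 with #1 and 0.20, 0.10 and 0.19 with #2 (adjusted p = 9.09e-05). It was lower on every array of #1 and on none of #2. C12orf42 had -1.48, -0.61 and -1.19 with #1 and 0.40, 0.25 and -0.14 with #2 (adjusted p = 0.0262), so its mean of -0.46 over 6 arrays describes neither siRNA. EPHB1, an ephrin receptor kinase, went from 0.31, 0.63 and 0.42 to -0.52, -0.47 and -0.55 (adjusted p = 0.000242), and DUSP23, a dual specificity phosphatase, from 0.35, 0.73 and 0.18 to -0.78, -0.23 and -0.54 (adjusted p = 0.00411). RASGRP1, an activator of Ras, was higher with #1 alone (0.96 against -0.01, adjusted p = 0.0458), a call that was lost with the replicate block. SOCS3 fell further with #2 (-2.28 against -0.53, adjusted p = 0.00185), as did THC2677011, an expressed sequence at 73872515 to 73872574 of chromosome 17 near the SOCS3 probe at 73864722 to 73864781 (-1.48 against -0.19, adjusted p = 0.0184). ASB2, a ubiquitin ligase subunit, and THC2618322 were higher with #2 (1.08 against 0.09, and 0.82 against -0.23), and CD24 rose further with #2 (adjusted p = 0.00302). The 52 calls rest on the spread pooled over the 8 combinations of line and siRNA. With the HBL-1 arrays alone no gene passed in limma (smallest adjusted p = 0.0551), although 2523 had an unadjusted p under 0.05, and with the replicate number as a block, paired across siRNAs, 93 passed. On leaving out HBL-1 arrays, 1 or 2 at a time in 9 ways, the difference of RASGRP1 was lost in 7, that of C12orf42 in 6, that of THC2677011 in 3 and those of THC2618322 and ASB2 in 2 each, while CD24, GALNT1, SOCS3, EPHB1 and DUSP23 passed in all 9. With normexp and loess the differences of GALNT1, SOCS3 and EPHB1 passed, and those of the other 7 genes named here, FOXP1 aside, did not (-0.42 to 0.91). As the mean over its probes the difference of SOCS3 was -1.24 and did not pass (limma adjusted p = 0.0571). Without replicate 3 of siFOXP1 #1 the count of 52 became 23, and without replicate 2 of #1 it became 31.

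**Figure D4:**
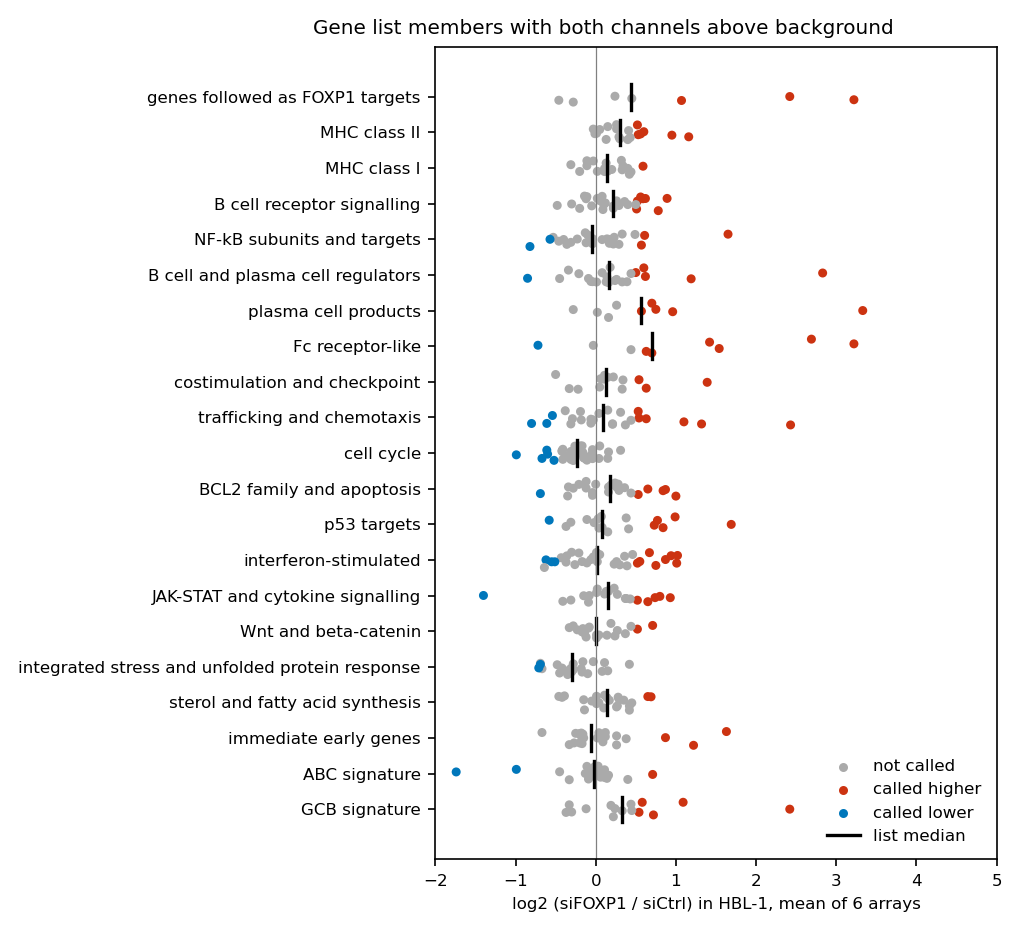
Mean log2 ratio over 6 HBL-1 arrays (x axis) of the members with both channels above background, for the 21 gene lists that had at least 5 such members (y axis), with a bar at the list median and colours for genes called higher or lower. The Fc receptor-like list has a median of 0.698 and the cell cycle list one of -0.236, against -0.00593 for all genes measured in both channels.

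Genes were next read by list, against backgrounds of 6.96% higher and 4.90% lower among genes measured in both channels, whose median was -0.00593. With normexp and median centring that median was -0.146 and the medians of 11 of 22 lists changed sign, but relative to it 3 did, those of the Wnt, immediate early and sterol lists. With the same setting 71 of 136 called genes followed one by one lost the call, which is not repeated for each gene below. Of 12 Fc receptor-like and Fc receptor genes on the array, 10 were above background, 7 were higher and 1 was lower, with a median of 0.698 over the 9 measured in both channels. FCRL2 and FCRL1, further receptors of the B cell surface, rose by 1.54 ± 0.11 and 1.42 ± 0.18. FCRL4, above background in at least one channel, rose by 1.59 ± 0.72 but gave 0.33 with normexp and loess. FCGRT, the neonatal Fc receptor that recycles antibody, rose by 0.70 ± 0.06. FCGR2B, the inhibitory Fc gamma receptor of B cells, fell by 0.72 ± 0.06, with every array between -0.80 and -0.62. FCRLB was higher with its brightest probe (0.63) and not with its other probe (-1.37), so its direction is uncertain.

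Among 10 plasma cell products, 9 were above background and 5 were higher, with none lower (median 0.571). Besides IGJ these were CD38, a NAD-consuming surface enzyme (0.96 ± 0.43), MGC29506 (now MZB1), a chaperone of antibody assembly (0.70 ± 0.27), and the antibody genes IGKC (0.75 ± 0.17) and IGHA1 (0.57 ± 0.11). The plasma cell surface proteins SDC1 (-0.28), SLAMF7 (0.02) and TNFRSF17 (0.26) were not called. IGKC lost its call with normexp and loess (0.49), and IGHA1 without replicate 1 (0.54) or as the mean over its probes (0.12). Antibody gene probes can bind related segments, so which locus they measured is uncertain.

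Among 27 regulators of B cell and plasma cell identity, 25 were above background, 7 higher and 1 lower (median 0.161). IRF8, a transcription factor of germinal centre B cells, had 1.48, 0.99 and 0.97 with #1 and 1.15, 1.13 and 1.39 with #2, a mean of 1.19 ± 0.21 (adjusted p = 5.07e-10). SPIB (0.62 ± 0.15) and MEF2C (0.60 ± 0.19), transcription factors of mature B cells, rose less. PRDM1, the repressor that drives plasma cell differentiation, had only one channel above background throughout, with values from 0.46 to 0.97 and a mean of 0.73. Its call was lost with the replicate number as a block (limma adjusted p = 0.0505), without any 1 replicate number (0.69 to 0.77) and with normexp and loess (0.18). IRF4, XBP1, PAX5 and BCL6 were not called (-0.04, 0.08, 0.16 and 0.44). KLF2, a factor of resting and recirculating lymphocytes, fell by 0.85 ± 0.34, from -0.51, -0.49 and -0.66 with #1 to -1.03, -1.11 and -1.31 with #2, with a second probe at -0.27. KLF2 (-0.56), SPIB (0.57) and MEF2C (0.45) were not called with siFOXP1 #1 alone.

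Of 21 MHC class II genes, 19 were above background, 6 were higher and none lower, with a median of 0.298. HLA-DOB, a modulator of peptide loading in B cells, rose by 1.16 ± 0.29, CD74, the invariant chain, by 0.95 ± 0.24 with arrays from 0.70 to 1.31, and HLA-DMA, a peptide exchange chain, by 0.60 ± 0.14. HLA-DQB2, HLA-DQB1 and HLA-DQA1 passed with 0.56, 0.53 and 0.52, lost the call without replicate 1 (0.48, 0.49 and 0.45), and were 0.84, 0.79 and 0.73 with #2 against 0.28, 0.28 and 0.31 with #1, without a difference that passed the test. HLA-DQA1 was 0.25 and not called as the mean over its probes, and HLA-DQB1 (0.46) and HLA-DQA1 (0.48) were not called with normexp and loess. HLA-DRA (0.40), HLA-DPA1 (0.43) and the transactivator CIITA (0.13) were not called. Probes for related HLA chains can bind one another's transcripts. The 18 MHC class I genes on the array were all above background, with a median of 0.143.

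B cell receptor signalling had 27 members above background, 7 higher and none lower, with a median of 0.216. The inhibitory receptor CD22 rose by 0.89 ± 0.15, the adaptor SH2B2 by 0.78 ± 0.22, the kinase BLK by 0.62 ± 0.21 and the receptor chains CD79B and CD79A by 0.59 ± 0.11 and 0.56 ± 0.12. CD79A was -0.16 with normexp and median centring, so its direction depended on the centring. CD22 (0.49), SH2B2 (0.47), BLK (0.21) and CD79B (0.08) kept their direction there but were not called. CD79A and CD79B were not called with normexp and loess (0.36 and 0.50). Of 26 NF-kB subunits and targets, all above background, 3 were higher and 2 lower. Their median was -0.0405 over both siRNAs but 0.0396 with #1 and 0.0832 with #2, so its sign is uncertain. LTB, the membrane anchor of lymphotoxin, rose by 1.65 ± 0.28 on arrays of 1.59, 1.19 and 1.56 with #1 and 1.76, 1.84 and 1.98 with #2 (adjusted p = 1.74e-09), IL6 by 0.61 ± 0.09 and NFKB2 by 0.57 ± 0.15. IL10, an anti-inflammatory cytokine, fell by 0.82 ± 0.45 and the chemokine CCL3 by 0.57 ± 0.25. IL6, NFKB2, IL10 and CCL3 were not called with normexp and loess (0.31, 0.44, -0.48 and -0.48), CCL3 not without replicate 3 (-0.53) and NFKB2 not without replicate 3 of siFOXP1 #2 (0.50).

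The trafficking list had 25 of 32 members above background, 6 higher and 3 lower, with a median of 0.0957. RGS13 and RGS1, which shorten chemokine receptor signals in germinal centre B cells, rose by 1.32 ± 0.27 and 1.10 ± 0.47, RGS1 without a call with siFOXP1 #1 alone (0.71), and GPR183, an oxysterol receptor that guides B cells to the outer follicle, by 0.63 ± 0.12. S1PR2, which confines B cells to the germinal centre, was called over 6 arrays (0.54) but had 0.26, -0.04 and 0.12 with #1 and 1.14, 0.80 and 0.98 with #2 (difference adjusted p = 0.0117), and its call was lost without replicate 1 (0.47). CCR6, CXCR3 and ITGB7, receptors for homing to mucosa and inflamed tissue, fell by 0.80 ± 0.21, 0.61 ± 0.24 and 0.54 ± 0.16, and none of them kept its call in every alternative (-0.29 and -0.40 for CCR6 and CXCR3 with normexp and loess, -0.46 for ITGB7 without replicate 1). Among 22 costimulatory and checkpoint genes, 15 were above background and 3 higher (median 0.133). ICOSLG, the ligand of ICOS on helper T cells, rose by 1.39 ± 0.38, with a second probe at 0.35.

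Cell cycle genes lay below 0 more often than above. Of 39 on the array, 38 were above background, none was higher and 5 were lower, and the median of -0.236 was -0.323 with #2 and -0.136 with #1. CCND2, the D-type cyclin of B cells, had -0.85, -0.68 and -0.68 with #1 and -1.31, -1.05 and -1.37 with #2, a mean of -0.99 ± 0.30 (adjusted p = 0.00019). E2F2 (-0.67 ± 0.23), PCNA (-0.61 ± 0.24), CDC25A (-0.60 ± 0.19) and TYMS (-0.52 ± 0.18), genes of DNA replication and its onset, were just past the limit. None of these 4 was called with siFOXP1 #1 alone (-0.48 to -0.37), and TYMS was not without replicate 1 (-0.49) or with normexp and loess (-0.47). As the mean over probes E2F2 (-0.39) and CDC25A (-0.43) were not called. The proliferation marker MKI67 (-0.29) and MYC (-0.33) were not called.

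Among 24 BCL2 family and apoptosis genes, all above background, 5 were higher and 1 lower (median 0.177). Pro-apoptotic BIK (1.00 ± 0.29), BBC3, which encodes PUMA (0.84 ± 0.24), HRK (0.65 ± 0.21) and BCL2L11, which encodes BIM (0.53 ± 0.06), rose, as did BCL2L1, whose long product protects cells (0.87 ± 0.20). BCL2L11 was not called as the mean over its probes (0.39) or with siFOXP1 #1 alone (0.49). BID, which links death receptors to mitochondria, fell by 0.69 ± 0.23. Of 18 p53 targets, 17 were above background, 5 higher and 1 lower (median 0.0759). TP53INP1, a stress-induced regulator of cell death, had 1.87, 1.07 and 1.65 with #1 and 2.06, 1.26 and 2.26 with #2 (mean 1.69 ± 0.46, adjusted p = 2.95e-07), and the antiproliferative BTG2 rose by 0.99 ± 0.22, while CDKN1A, the best known p53 target of the cell cycle, had 0.04. MDM2, the p53 ubiquitin ligase, fell by 0.58 ± 0.23, a call lost with normexp and loess (-0.26), as the mean over its probes (-0.41) and without replicate 3 (-0.47).

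Cytokine signalling and interferon genes moved in both directions. Of 25 JAK-STAT and cytokine genes, 23 were above background, 6 higher and 1, SOCS3, lower (median 0.158). The shared interleukin receptor chain IL2RG rose by 0.93 ± 0.36, IL10RA by 0.80 ± 0.12 and the kinase JAK2 by 0.65 ± 0.22. SOCS1, an inhibitor related to SOCS3, rose by 0.74 ± 0.42, but was not called with siFOXP1 #2 alone (0.48) or with normexp and loess (0.46), where JAK2 was not called either (0.29). Of 35 interferon-stimulated genes, 34 were above background, 9 higher and 3 lower, with a median of 0.0114 that was 0.13 with #1 and -0.0591 with #2. IFITM1 (1.02 ± 0.23), OAS1 (1.01 ± 0.17), GBP2 (0.94 ± 0.18) and ISG20 (0.87 ± 0.05) rose, IFI44 fell by 0.62 ± 0.22, with IFITM1 at 0.41 and IFI44 at -0.48 and neither called with normexp and loess, and IFI44 not called with siFOXP1 #1 alone (-0.48). Of the same list, ISG15 and MX1 were not called (-0.21 and -0.01).

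The remaining lists held few calls. Immediate early genes had 3 higher of 22 above background (median -0.063), namely CD69, an early activation antigen (1.63 ± 0.49), EGR2 (1.22 ± 0.43) and EGR1 (0.87 ± 0.45), and the calls were lost without replicate 2 or 3 for EGR1 (0.72 and 0.86) and without any replicate number for EGR2 (1.16 to 1.28). In the integrated stress and unfolded protein response, 2 of 22 were lower (median -0.293), the amino acid synthesis genes ASNS (-0.71 ± 0.12) and PSAT1 (-0.69 ± 0.08), whose calls were lost on leaving out any 1 array for PSAT1 (-0.71 to -0.68) and any but replicate 2 of siFOXP1 #2 for ASNS (-0.73 to -0.67), which was -0.06 as the mean over its probes. DDIT3 (-0.69) and ATF3 (-0.67) of the same response were not called. In the main fit EGR1 (0.56) and EGR2 (0.84) were not called with siFOXP1 #1 alone, and ASNS and PSAT1 were called with neither siRNA alone. That fit and the fits with arrays left out pooled the spread over lines. With the HBL-1 arrays alone, EGR1, EGR2, ASNS and PSAT1 kept their calls. Sterol and fatty acid synthesis had 2 higher of 23 above background, SREBF2 (0.69 ± 0.12) and MVD (0.65 ± 0.13), and the Wnt list 2 of 23, WNT3 (0.71 ± 0.36, and 0.42 without a call with normexp and loess) and DVL2 (0.52 ± 0.07, and 0.50 without a call when replicate 1 was left out). Of 20 genes that are used to mark ABC-DLBCL, 1 was higher, IL16 (0.71 ± 0.27), and 2 lower, FOXP1 itself and CCND2, with a median of -0.0236 that was 0.0944 with #1 and -0.124 with #2. IL16 was not called as the mean over its probes (0.48) or with #1 alone (0.46). Of 16 GCB-DLBCL marker genes above background, 5 were higher and none lower (median 0.331), with NEIL1, LRMP (now IRAG2, 1.09 ± 0.19), ITPKB (0.72 ± 0.22), STAP1 (0.58 ± 0.10, and 0.37 without a call with normexp and loess) and S1PR2. Of 8 genes followed as FOXP1 targets, 5 of them from the study's text (LPP, NEIL1, VNN2, CHAC1 and HIP1R) and 3 because earlier results of these arrays were known, and so no independent evidence, FCRL5, NEIL1 and HIP1R, an endocytic adaptor (1.07 ± 0.23), were higher, and VNN2 (0.45), FCGBP (0.37), LPP (0.24), CHAC1 (-0.28) and C12orf42 were not called.

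HBL-1 was compared with OCI-Ly3, the other ABC-DLBCL line, by a test of the difference between lines. Of 30139 genes, 1506 (5%) differed, with HBL-1 above in 752 and below in 754, and 564 of the 1727 higher and 379 of the 1258 lower HBL-1 genes were among them in their direction. Without HBL-1 replicate 1 the count of 1506 became 932. The lines were scanned in different sessions, so line and session cannot be told apart here. IGJ averaged 0.40 ± 0.43 in OCI-Ly3 against 3.33 in HBL-1 (adjusted p = 7.18e-09), and CXCR4 averaged -0.22 ± 0.32 against 2.43 (adjusted p = 1.44e-06). JSRP1 averaged 0.47 ± 0.20 in OCI-Ly3 against 2.49, and PODXL, an anti-adhesive surface sialomucin, -0.17 ± 0.14 against 1.91 (adjusted p = 7.91e-09). All 4 were above background in both channels on all 6 OCI-Ly3 arrays. FCRL3, at 2.60 ± 0.85 in OCI-Ly3 with no array above background in both channels, did not pass the test of a difference (adjusted p = 0.88).

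HBL-1 lay below OCI-Ly3 for S1PR1, the receptor by which lymphocytes leave tissues, at -0.31 ± 0.13 against 1.43 ± 0.45 (adjusted p = 5.57e-08), and for HLF at -1.61 against -0.15 ± 0.08 (adjusted p = 1.58e-07). ZYG11A (-0.41 against 2.74), KLF3 (-0.73 against 1.13) and FGD4 (-0.22 against 1.51) also differed, but were above background in both channels on only 0, 2 and 1 of the 6 OCI-Ly3 arrays. KLF3 and FGD4 did not differ with normexp and loess (-0.48 and -0.25).

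K422, the GCB-DLBCL line of the same scan session, differed from HBL-1 in 1307 genes (4.34%), with HBL-1 above in 694 and below in 613. Of the 1727 higher and 1258 lower HBL-1 genes, 460 and 307 differed in their direction. Against both OCI-Ly3 and K422, 273 and 171 did so. DB was not compared. The HBL-1 arrays that made these calls also entered the tests, so these counts and those against OCI-Ly3 are no independent evidence. PODXL rose in HBL-1 (1.81, 1.45 and 1.47 with #1, 2.28, 2.26 and 2.20 with #2) and averaged -0.92 ± 0.40 in K422 (adjusted p = 2.38e-10), and C16orf74 averaged 0.30 ± 0.07 there against 2.94 (adjusted p = 5.18e-08). FCRL5 (0.02 ± 0.58) and JSRP1 (-0.45 ± 0.56) in K422 were above background in both channels on none of its arrays, and neither were C12orf42 (-3.88 ± 0.29), GZMH (0.57 ± 0.61) and C10orf10 (-0.38 ± 0.59). With normexp and loess the difference of C12orf42 was 0.43 in place of 3.41 and was not called, nor was it with median centring (0.39). AK055214 and THC2551927, transcripts at 190090512 to 190090571 and 190081152 to 190081211 of chromosome 3, averaged 2.39 ± 0.16 and 2.32 ± 0.27 in K422 against 0.54 and 0.36 in HBL-1 (adjusted p = 2.35e-07 and 2.16e-05), and AW946823 averaged 1.27 ± 0.58 against -0.65.

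**Figure D5:**
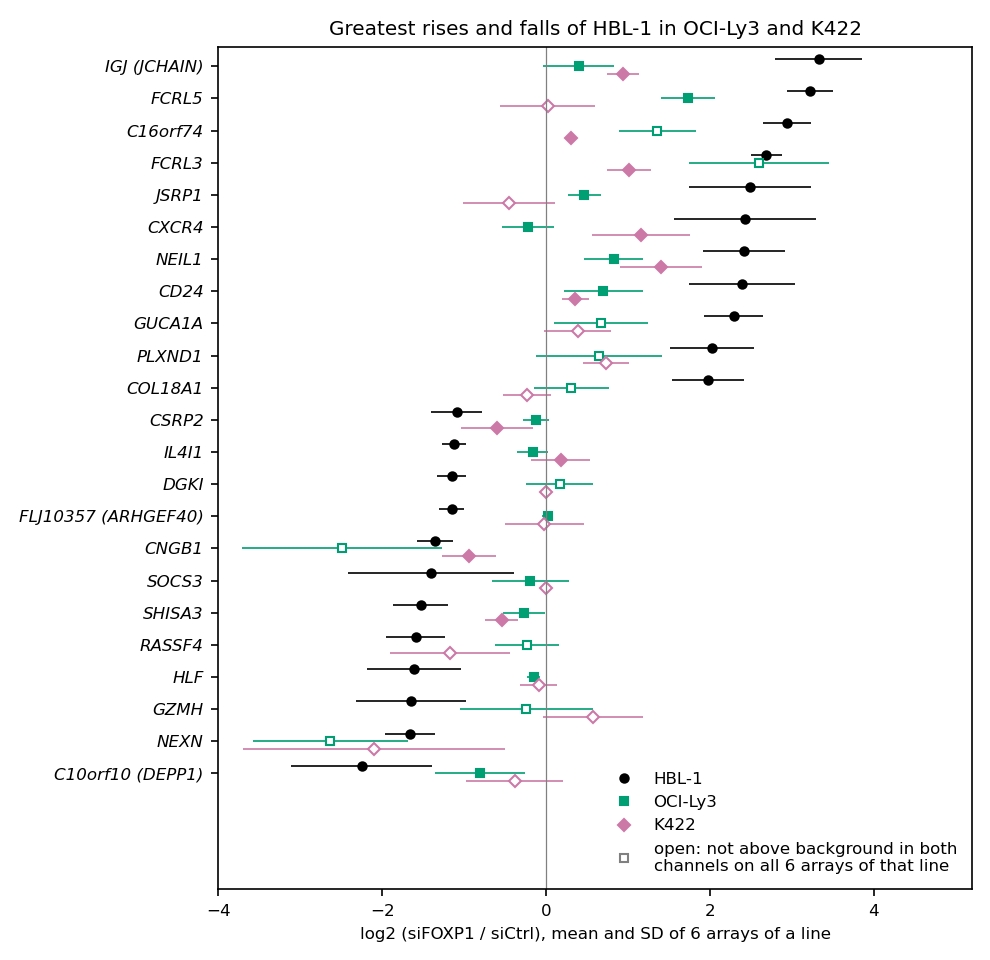
Mean log2 ratio with SD over the 6 arrays of a line (x axis) for 23 of the 24 genes with the greatest rises and falls in HBL-1 (y axis), in HBL-1 (circles), OCI-Ly3 (squares) and K422 (diamonds). Open symbols mark lines in which a gene was not above background in both channels on all 6 arrays. IGJ was at 3.33 in HBL-1, 0.40 in OCI-Ly3 and 0.94 in K422.

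Because FOXP1 binds DNA through its forkhead domain, promoters were searched on either strand for motifs of forkhead type. The first was spelled TGTTTAC. Another, related in its letters, was spelled TATTTGT. The last, which differs from it in a single letter, was spelled TATTTAT. Promoters were the 250 bases before and 50 after a start site in RefSeq on GRCh38.p14. Those on chromosome 8 were left out, and 14280 tested genes had one of the others. At least one motif was found in 7.63% of these, in 7.93% of 908 called higher and in 5.97% of 586 called lower. Among genes measured in both channels it was 5.88% of 9568, 6.24% of 673 called higher and 5.00% of 440 called lower. Of all 35116 promoters searched, 10.9% held one. Of the 24 greatest rises and falls, 22 had a promoter and C10orf10 alone held a motif. The promoters of FOXP1, C10orf10, LTB and BCL2L11 are shown as examples of the silenced gene, the greatest fall and 2 rises that hold a motif, with the motif in capitals. They lie on GRCh38.p14 at chr3:71583679-71583978 (minus strand), chr10:44978760-44979059 (minus), chr6:31582376-31582675 (minus) and chr2:111120664-111120963 (plus), and are written in the direction of transcription.
FOXP1: {{FOXP1}}
C10orf10 (DEPP1): {{C10orf10}}
LTB: {{LTB}}
BCL2L11: {{BCL2L11}}
TATTTAT in the FOXP1 promoter began 26 bases before the start site. The match to TGTTTAC on the other strand had its first printed base 180 bases before the start site in C10orf10, 123 in LTB and 223 in BCL2L11. A match is a run of letters and no measured binding site.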

How the data were processed

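Log ratios of 6 HBL-1 arrays, and of 18 arrays of OCI-Ly3, K422 and DB that share the model, were analysed. The authors scanned the 2-colour arrays and deposited Feature Extraction output (version 10.7.3.1 for HBL-1 and K422, 10.5.1.1 for the others, per the file headers), whose intensity values for each dye give a log10 ratio (Cy5 against Cy3) that the software background-subtracted and then dye-normalized by a linear and a loess step. They also deposited a log2 matrix of Cy3 over Cy5 (correlation with the ratios 0.823 to 0.998 on the HBL-1 arrays), used as an alternative. Coordinates are hg18.

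Ratios were divided by log10 of 2 with the sign turned. Control spots (1639 of 45015) and 115 to 268 outlier spots per HBL-1 array were left out, spots of a probe averaged, and the brightest probe kept for each of 30142 genes, 18349 of them matched to a current RefSeq symbol (GRCh38.p14; 16806 by accession). R 4.3.3 with limma 3.58.1 fitted 8 means of line and siRNA. The HBL-1 value averaged both siRNAs, and p-values were adjusted by Benjamini-Hochberg across every gene tested. The script was tested on simulated data.

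Replicates are described as biological. Replicate numbers were taken as pairing arrays in alternatives, but not in the main fit. The reason for pairing was that deviations from the siRNA means correlated for equal numbers. The correlations were 0.393, 0.546 and 0.200 over 16459 genes measured in both channels, and 0.213, 0.182 and 0.0748 over all genes. For unequal numbers they ran from -0.53 to 0.0791 and from -0.208 to 0.0446. Deviations from a mean of 3 arrays sum to 0, so these correlations are not independent of one another. The measure was not fixed beforehand. The main fit had no block, so its p-values treat arrays of equal replicate number as independent. With replicate number as a block (consensus correlation 0.249), 1579 genes were higher and 1154 lower. The main fit gave 1727 and 1258. Replicate 1 of both siRNAs lay on a slide shared with K422, replicates 2 and 3 on another, so the correlations for equal numbers also hold any effect of slide.

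Named genes were FOXP1, the 12 greatest rises and falls past 2-fold of one sign on 6 arrays with both channels above background, 6 each with one channel, the 5 greatest differences each way between siRNAs and lines, and up to 4 called members per list. Further list members and all uncalled ones were named after their values were seen. Values of 4 genes are not reported here. Lists and rules were chosen with earlier results of these data known. Alternatives were normexp (offset 50) with loess or median centring, the matrix, 2 signal filters, outlier spots kept, the mean over probes, replicate number or slide as a block, another prior, the arrays compared alone, the methods' t-test, each siRNA alone and arrays left out. The slide of replicate 1 alone was added after seeing the data.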

Additional observations from a re-analysis of the deposited data

Results flagged for a closer look

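Differences between groups were seen for 52 genes between the siRNAs, 1506 between HBL-1 and OCI-Ly3 and 1307 between HBL-1 and K422, each by a limma test of the difference itself with an adjusted p below 0.05 and a size of at least 0.5 on the log2 scale. Groups of 3 replicates were too small for a test of single arrays.

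Between siRNAs, the log2 ratio with siFOXP1 #2 minus that with #1 was -0.90 for FOXP1. It was 1.27 for C12orf42, 1.16 for CD24, 1.06 for GALNT1, 1.05 for THC2618322 and 0.99 for ASB2. It was -1.75 for SOCS3, -1.30 for THC2677011, -0.97 for RASGRP1, -0.96 for EPHB1 and -0.94 for DUSP23.

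The HBL-1 ratio minus that of OCI-Ly3 was 2.94 for IGJ, 2.66 for CXCR4, 2.08 for PODXL and 2.02 for JSRP1. It was -3.15 for ZYG11A, -1.86 for KLF3, -1.75 for S1PR1, -1.73 for FGD4 and -1.46 for HLF.

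The HBL-1 ratio minus that of K422 was 3.41 for C12orf42, 3.20 for FCRL5, 2.94 for JSRP1, 2.83 for PODXL and 2.65 for C16orf74. It was -2.22 for GZMH, -1.97 for THC2551927, -1.92 for AW946823, -1.87 for C10orf10 and -1.85 for AK055214.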

How the results depend on the processing

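FOXP1 was called lower under every alternative run, with log2 ratios from -2.19 (siFOXP1 #2 alone) to -1.29 (siFOXP1 #1 alone), and from -1.83 to -1.59 with arrays left out. The 1727 higher genes became 690 with normexp and loess, 158 with normexp and median centring, 1116 with siFOXP1 #1 alone, 875 when each siRNA had to pass alone and 281 with a 2-fold limit. The 1258 lower genes became 288 with normexp and loess, 826 among genes with both channels above background, 782 with siFOXP1 #1 alone, 543 with each siRNA and 220 with a 2-fold limit. With normexp and median centring the lower genes were 1870. Of the 690 and 288 calls with normexp and loess, 628 and 249 were shared with the 1727 and 1258. Of the 158 and 1870 calls with normexp and median centring, 158 and 466 were shared, so most of the 1258 lower calls were lost there. The 52 genes that differed between siRNAs became 25 with normexp and loess, 27 with the matrix, 93 with the replicate block and 0 with normexp and median centring, with HBL-1 arrays alone and by the methods' t-test with Benjamini-Hochberg adjustment, where 175, 2523 and 2073 had an unadjusted p under 0.05. The 1506 genes that differed from OCI-Ly3 became 572 and 292, and the 1307 that differed from K422 became 499 and 306, with normexp and loess or median centring. With arrays left out, the counts ran from 1346 to 2036 higher, 936 to 1465 lower, 23 to 65 between siRNAs, 932 to 1817 against OCI-Ly3 and 927 to 1572 against K422. Of 136 genes called in HBL-1 and followed one by one (named genes and called list members above background), 45 lost the call with normexp and loess, 71 with normexp and median centring, 11 as the mean over probes and 3 with the replicate block (PRDM1, LGALS9 and IFIT3), which changed no other call among them. CD79A reversed with normexp and median centring (-0.16) and FCRLB as the mean over probes (-0.37). With the HBL-1 arrays alone, all 136 kept the call. The cause of these changes was not tested. Signal over background limits 1113 genes with one channel above background throughout and 12570 dim genes.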
